A study of Homo sapiens with 12 samples.

Results

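The interferon regulatory factors (IRFs) are transcription factors that control interferon genes and the genes that interferons induce. In the RNA of HK2 cells, the 8 members IRF1, IRF2, IRF3, IRF4, IRF5, IRF7, IRF8 and IRF9 were taken by gene symbol from the 58278 genes listed for each library. HK2 cells come from human proximal tubule epithelium and were immortalized, and all groups share this 1 line. Of 6 groups with 2 biological replicates each, Ctrl was untreated and TN received TNF-α at 5 ng/mL for 3 h. PRTN and BUTN had 15 mM propionate or 3 mM butyrate, the short-chain fatty acids (SCFAs), for 24 h before the same TNF-α, and TNPR and TNBU had them for 24 h after it. The general treatment text in the labels names other agents, thapsigargin and JQ1, while the treated libraries' own labels give TNF-α with or without an SCFA, which is the treatment used here. No cells with TNF-α alone and the longer culture time of TNPR and TNBU were analysed here, so the SCFA and the time after TNF-α cannot be told apart where these groups are set against TN. Propionate and butyrate were given at different doses, and their values stand side by side without a test between them.

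IRF1 and IRF2 bind the same DNA element, and IRF1 is known mainly as an activator, IRF2 mainly as a repressor. IRF3 and IRF7 lie in the cytoplasm until kinases such as TBK1 phosphorylate them, and they then switch on interferon genes, while IRF5 acts below Toll-like receptors on inflammatory cytokine genes. IRF9 is the DNA-binding subunit of ISGF3, the STAT2-containing complex that answers type I interferon. IRF4 and IRF8 are known from lymphoid and myeloid cells, where they bind DNA together with partners such as SPI1. TNF-α acts through NF-κB, which is known to induce IRF1 in many cell types.

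Promoter sequence is shown for the 2 members with a match to a GAS (interferon-gamma-activated sequence) or κB motif in the window, because IRF1 was among the 2 members that passed the adjusted p after TNF-α and IRF9 fell with both SCFAs. The RefSeq table (build GRCh38.p14) gave windows of 300 bases, from 250 before to 50 after a transcription start, for 5 of the 8 members (IRF1, IRF4, IRF5, IRF8 and IRF9, with 9 windows in all). The capitals mark a GAS match (letters TTCNNNGAA) in both, and in IRF1 also a match to the κB consensus. The IRF1 window is chr5:132490724-132491023 on the minus strand, and the IRF9 window is chr14:24161015-24161314 on the plus strand.
IRF1: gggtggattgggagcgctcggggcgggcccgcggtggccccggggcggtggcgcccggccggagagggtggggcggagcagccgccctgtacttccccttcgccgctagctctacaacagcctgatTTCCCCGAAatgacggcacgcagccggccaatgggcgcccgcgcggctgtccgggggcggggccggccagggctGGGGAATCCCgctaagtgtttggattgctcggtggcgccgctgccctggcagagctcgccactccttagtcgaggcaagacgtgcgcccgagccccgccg
IRF9: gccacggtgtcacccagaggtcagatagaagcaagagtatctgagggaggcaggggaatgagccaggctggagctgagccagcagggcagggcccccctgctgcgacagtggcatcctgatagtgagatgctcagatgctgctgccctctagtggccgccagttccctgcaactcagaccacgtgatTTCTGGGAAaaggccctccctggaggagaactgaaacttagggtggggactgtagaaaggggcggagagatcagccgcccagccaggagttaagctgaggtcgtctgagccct
In the IRF1 window the GAS match began at position -124 and the κB match at -50, counted from the start. The GAS match of the IRF9 window began at -63. Both strands were searched, and 7.66% of 35116 promoter windows of the same length held the GAS letters and 5.91% the κB consensus. The ISRE core, 2 GAAA repeats that stand 2 bases apart and part of the element that IRFs bind, was in 3.57% of all windows and in none of the 9. GC boxes (GGGCGG) stood in 45.0% of all windows, with 5 in that of IRF1 and 2 in that of IRF9, and did not overlap the motifs in capitals. A match describes letters only.

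The 12 libraries held 27269986 to 33851130 expected counts, estimated reads per gene that need not be whole. Levels are given as CPM, counts relative to a library's total scaled with TMM factors, and 3 counts correspond to 0.0886 to 0.11 CPM. These limits and the counting intervals below cover counting error only. Replicates were least alike in TNPR and TNBU, with a median difference between the pair of 0.140 and 0.158 on the log2 scale against 0.0828 to 0.104 in the other groups. Of 12 epithelial and tubule markers, 8 to 11 reached 1 CPM in each library, while the proximal tubule receptor gene LRP2 was at 0 in the 4 Ctrl and TN libraries. A call needed more than a 1.5-fold difference and an adjusted p below 0.05 in limma-voom, over the 24342 genes that passed the filter on low values. All 8 members passed it, IRF4 and IRF8 only through the SCFA groups, so their calls are no support and are given as counts below. The 12 epithelial markers also changed, with 8 called up and 4 down in PRTN, BUTN and TNBU against TN. In TNPR 7 rose and 4 fell, among them KRT19 (log2 4.18) and EPCAM (log2 -1.91). Over all genes, 23.1% to 25% were called up and 14.8% to 16.9% down. LRP2 passed the filter only through the SCFA groups, and ANPEP was at 0 in Ctrl replicate 2 and in both TN libraries. Calls of LRP2 and ANPEP are no support. P-values set a difference against the spread between replicates, which was estimated over all 6 groups together. Tests of TNPR and TNBU thus also draw on the smaller spread of the other groups. In bulk RNA, fewer cells of a type and less RNA per cell cannot be told apart.

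Per kilobase of the canonical transcript, the IRF mRNAs of untreated cells differed widely. IRF3 was highest at 31.9 CPM per kb. IRF9 at 12.1, IRF2 at 10.99 and IRF1 at 9.77 CPM per kb followed, and in that order each neighbour's range over the replicates overlapped the next. IRF7 at 3.35 and IRF5 at 2.70 CPM per kb were lower, and their ranges did not overlap. IRF4 and IRF8 were at or under the floor. With the length of all exons of a gene in place of the canonical transcript, IRF3 was 13.4, IRF2 3.69, IRF9 3.04, IRF1 2.83, IRF7 2.47 and IRF5 1.10 CPM per kb, so the order of IRF1, IRF2 and IRF9, and the gap between them and IRF7, depend on the length used.

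**Figure D1:**
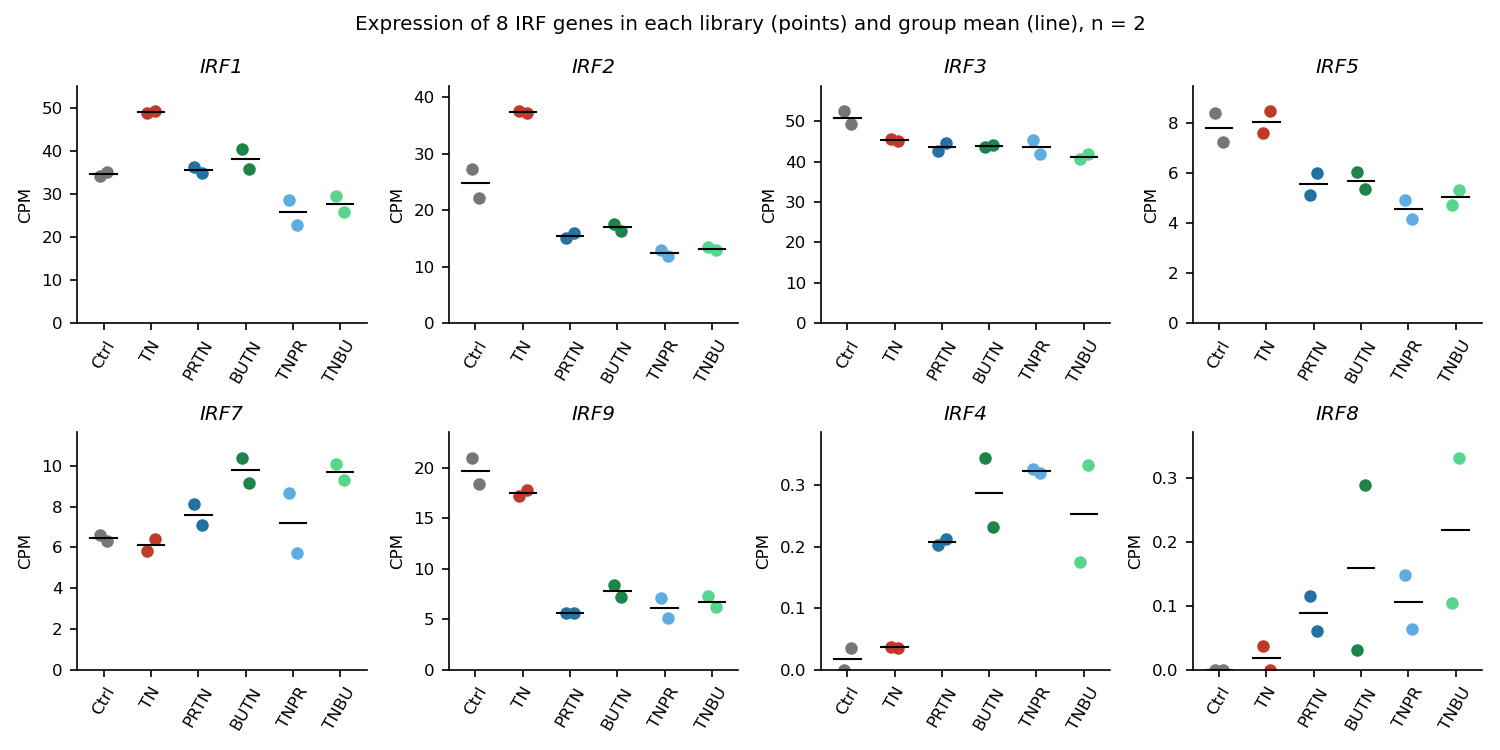
Each panel plots 1 IRF gene, with the group on the horizontal axis and CPM from 0 on the vertical axis; points are the 2 libraries of a group and the line is their mean. IRF1 and IRF2 peak in TN at about 49.1 and 37.4 CPM, IRF9 drops to 5.64 CPM in PRTN from 17.5 in TN, IRF3 stays between 40.6 and 52.4 CPM, and IRF4 and IRF8 do not exceed 0.344 CPM.

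With TNF-α alone, IRF2 rose, and it was the only member of 8 called, against 0.764% of all genes called up and 0.534% called down. IRF2 (chr4:184385702-184474558, GRCh38) was at 27.4 and 22.2 CPM in Ctrl and at 37.5 and 37.3 CPM in TN. Both TN libraries lay above both Ctrl libraries, and the fold change was 1.52 (log2 0.60, SE 0.09, adjusted p = 0.00349). It stood just over the threshold of 1.5 and was not called without Ctrl replicate 2, when it had a log2 fold change of 0.45, with library size alone as scaling, or in a fit of only these groups. IRF1 (chr5:132440440-132508719) was at 34.3 and 35.1 CPM in Ctrl and at 49.0 and 49.3 CPM in TN. Its 2 groups did not overlap either, and its difference passed the adjusted p but not the fold threshold (1.42-fold, log2 0.50, SE 0.10, adjusted p = 0.0156). IRF3, IRF5, IRF7 and IRF9 had log2 differences of -0.16, 0.04, -0.08 and -0.17, with adjusted p from 0.226 to 0.946.

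In SCFA-treated cells IRF2 fell in all 4 groups, below its level in untreated cells. It was at 15.1 and 16.0 CPM for PRTN, 17.6 and 16.4 for BUTN, 13.03 and 11.99 for TNPR, and 13.5 and 12.9 for TNBU. No SCFA library reached the lower Ctrl library at 22.2 CPM. Against TN the level was 2.41-fold lower in PRTN (log2 -1.27, SE 0.10, adjusted p = 2.64e-07), 2.20-fold in BUTN, 2.99-fold in TNPR and 2.83-fold in TNBU. Against Ctrl, IRF2 was called down in PRTN (log2 -0.67), TNPR (-0.98) and TNBU (-0.90), and in BUTN its difference of -0.54 passed the adjusted p (0.000552) at a fold of 1.45. The PRTN call against Ctrl was lost without Ctrl replicate 1 and with library size alone, and BUTN gained one without Ctrl replicate 2 or BUTN replicate 1.

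IRF1 fell in both groups that had the SCFA after TNF-α. It was at 36.3 and 34.9 CPM in PRTN and 40.4 and 36.0 in BUTN, at or a little above the Ctrl level, and at 28.7 and 23.0 CPM in TNPR and 29.6 and 25.9 in TNBU, below all Ctrl libraries. Against TN it fell in TNPR (1.91-fold, log2 -0.93, SE 0.10, adjusted p = 5.47e-06) and in TNBU (1.77-fold, log2 -0.83, adjusted p = 1.72e-05). The lower levels in PRTN (log2 -0.46, adjusted p = 0.00128) and BUTN (-0.37, adjusted p = 0.00621) missed the fold threshold. The later and the earlier addition were compared directly, and IRF1 was lower in TNPR than in PRTN by log2 -0.47 (adjusted p = 0.119) and lower in TNBU than in BUTN by log2 -0.46 (adjusted p = 0.0625). Neither passed the adjusted p, although in both the libraries of the 2 groups did not overlap.

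The ratio of IRF1 to IRF2 shows both genes at once and does not depend on the scaling of a library. Per kilobase it was 0.796 and 1.00 in Ctrl and 0.829 and 0.839 in TN. In the SCFA groups it was 1.53 and 1.39 for PRTN, 1.45 and 1.39 for BUTN, 1.398 and 1.22 for TNPR, and 1.39 and 1.27 for TNBU. All 8 SCFA libraries lay above all 4 libraries without SCFA, which describes the larger fall of IRF2. TNF-α alone left the ratio within the range of Ctrl.

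**Figure D2:**
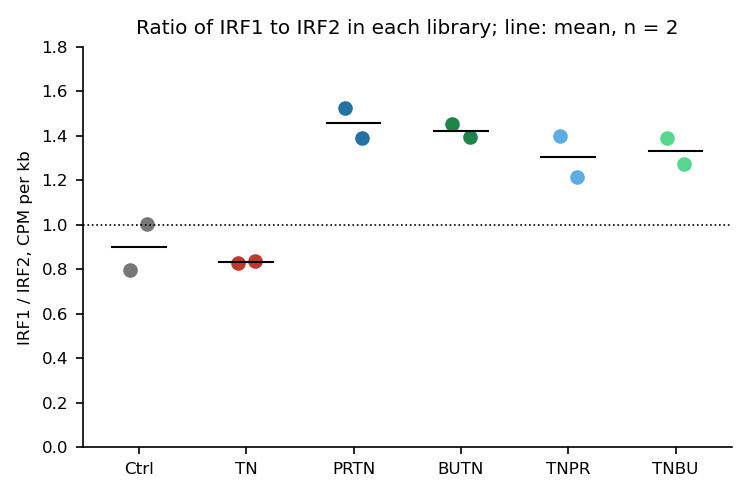
The ratio of IRF1 to IRF2 (CPM per kb of canonical transcript, from 0) is plotted for each library by group, with a line at the mean of 2 replicates and a dotted line at equal levels. The 4 libraries without SCFA lie at 0.796 to 1.00 and the 8 with SCFA at 1.22 to 1.53.

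Among the factors that carry signals from nucleic acid and Toll-like receptors, IRF3 was called in no comparison, IRF5 fell in TNPR and TNBU, and IRF7 rose with butyrate. IRF3 (chr19:49659569-49665875) ranged from 40.6 to 52.4 CPM over the 12 libraries, and its log2 differences from TN were between -0.14 and -0.05. The SCFA groups were lower than Ctrl by log2 -0.21 to -0.30, under the fold threshold, at adjusted p from 0.00193 to 0.0151. Its exons share 734 bases with BCL2L12 on the other strand, whose level of 19.2 CPM in TN rose to 40.0 in PRTN, and the sources used here do not state whether the counting used strand.

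IRF5 (chr7:128937457-128950038) was at 8.41 and 7.24 CPM in Ctrl and 7.60 and 8.47 in TN. It was at 5.12 and 6.02 CPM for PRTN, 6.04 and 5.37 for BUTN, 4.92 and 4.19 for TNPR, and 4.73 and 5.34 for TNBU, so that no SCFA library reached a library without SCFA. The fall from TN was called in TNPR (1.76-fold, log2 -0.82, SE 0.15, adjusted p = 0.000389) and TNBU (1.59-fold, log2 -0.67, SE 0.15, adjusted p = 0.00172). In PRTN (log2 -0.53, adjusted p = 0.00556) and BUTN (-0.50, adjusted p = 0.0086) it missed the fold threshold, and it was called there without TN replicate 1, and in PRTN without PRTN replicate 2 or in BUTN without BUTN replicate 1. The TNBU call was lost with library size alone. Against Ctrl, IRF5 fell in TNPR (log2 -0.78) and TNBU (log2 -0.63), the latter lost without Ctrl replicate 1 or TNBU replicate 1 and with library size alone. In PRTN against Ctrl (log2 -0.49) it missed the fold threshold and was called without Ctrl replicate 2 or PRTN replicate 2. No timing contrast of IRF5 passed (adjusted p = 0.511 for propionate and 0.646 for butyrate).

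IRF7 (chr11:612553-615983), itself an interferon-induced gene, was at 6.59 and 6.31 CPM in Ctrl and 5.85 and 6.39 in TN. With butyrate it was at 10.4 and 9.16 CPM in BUTN and 10.1 and 9.33 in TNBU, above every library without SCFA. With propionate it was at 8.13 and 7.09 CPM in PRTN and at 8.68 and 5.72 in TNPR, where the pair lay on both sides of Ctrl and TN. IRF7 rose against TN in BUTN (1.59-fold, log2 0.67, SE 0.17, adjusted p = 0.00543) and TNBU (1.58-fold, log2 0.66, SE 0.18, adjusted p = 0.00609). In PRTN and TNPR its log2 differences were 0.31 and 0.21 (adjusted p = 0.157 and 0.343). Both butyrate calls against TN were lost without TN replicate 1, and that in BUTN without BUTN replicate 1 and that in TNBU without TNBU replicate 1. Over BUTN and TNBU against Ctrl, the folds were 1.51 and 1.501, and the calls were lost in 7 and 8 of 20 alternatives, among them leaving out Ctrl replicate 2, either TN library, BUTN replicate 1, TNPR replicate 1 or TNBU replicate 1.

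IRF9 (chr14:24161234-24168043) fell in every SCFA group and was not called with TNF-α. It was at 21.0 and 18.4 CPM in Ctrl and 17.2 and 17.8 in TN. The SCFA libraries were at 5.63 and 5.65 CPM for PRTN, 8.39 and 7.23 for BUTN, 7.15 and 5.16 for TNPR, and 7.27 and 6.19 for TNBU. All 8 lay below the lowest library without SCFA. Against TN, IRF9 was 3.10-fold lower in PRTN (log2 -1.63, SE 0.15, adjusted p = 9.96e-07), 2.25-fold in BUTN (log2 -1.17, SE 0.13, adjusted p = 1.07e-05), 2.86-fold in TNPR and 2.61-fold in TNBU. Against Ctrl the folds were 3.48, 2.53, 3.22 and 2.93 in the same order, and the calls of IRF9 held in all 20 alternatives of each comparison. IRF9 shares 1544 exon bases with ENSG00000259529 on the same strand, to which the counting could assign reads of either gene. That gene was at 3.77 CPM in TN and at 2.07, 2.49, 1.69 and 2.82 CPM in PRTN, BUTN, TNPR and TNBU, and the part of this overlap in the IRF9 values was not tested.

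STAT2, a subunit of ISGF3 beside IRF9, was not called with TNF-α alone or in any SCFA group against TN. With TNF-α alone STAT2 had a log2 difference of -0.42 (adjusted p = 0.00788), under the fold threshold. It was at 55.3 and 56.3 CPM in TN and between 57.4 and 81.4 CPM in the 8 SCFA libraries. It was called in none of the 4, with log2 differences of 0.14, 0.05, 0.44 and 0.20, of which those in TNPR and TNBU passed the adjusted p (0.000203 and 0.0378).

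Target genes of ISGF3 were called in both directions. Of 24 tested, 6 rose and 6 fell in PRTN against TN, 6 and 5 for BUTN, 7 and 9 for TNPR, and 7 and 9 for TNBU. Over all genes, 23.1% to 25% were called up and 14.8% to 16.9% down in these contrasts, so the rises were near the background share. The list medians were log2 -0.15, 0.08, -0.06 and 0.10, beside 0.09, 0.08, 0.12 and 0.09 over all genes tested. IFIT3 was at 24.2 and 21.3 CPM in TN and at 2.34 and 2.77 in PRTN (log2 -3.15). IFI44L went from 34.7 and 33.4 CPM in TN down to 4.75 and 4.81 in PRTN (log2 -2.83). In the opposite direction, IFI6, a mitochondrial antiviral protein gene, was at 5.55 and 6.46 CPM in TN but at 40.3 and 38.6 in PRTN (log2 2.71), and OASL went from 0.782 and 0.826 to 4.69 and 3.77 (log2 2.36). IFIT3 and IFI44L fell, and IFI6 and OASL rose, in all 4 SCFA groups. With TNF-α alone 0 of the 24 were called, 4 at an unadjusted p under 0.05, and 0 by edgeR and by DESeq2.

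**Figure D3:**
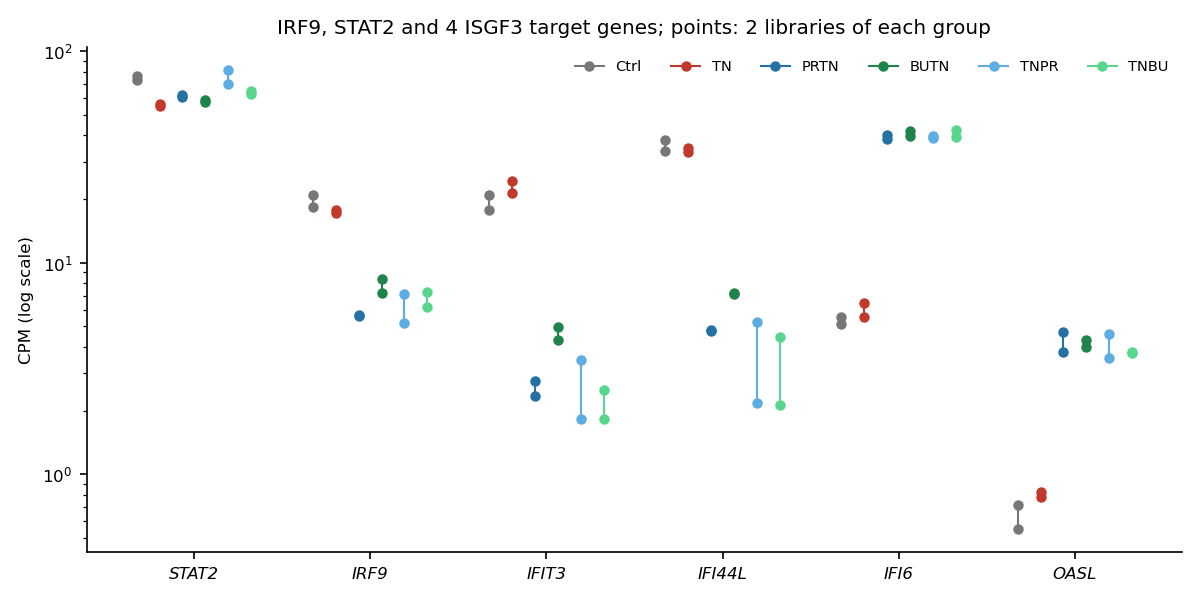
IRF9, STAT2 and 4 target genes of ISGF3 are plotted as CPM on a log axis; the 2 joined points of each color are the replicates of a group. Against TN, IRF9, IFIT3 and IFI44L lie lower in the SCFA groups, STAT2 does not, and IFI6 and OASL lie higher.

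IRF4 (chr6:391739-411443) and IRF8 (chr16:85899116-85922606) had at most 11 counts in any library. IRF4 had 0 and 1 counts in Ctrl and 1 and 1 in TN. It had 7 and 7 counts for PRTN, 11 and 8 for BUTN, 11 and 10 for TNPR, and 5 and 10 for TNBU, at most 0.344 CPM. Every SCFA library had more counts than every library without SCFA. As ratios of summed counts to TN, these were 5.68 in PRTN (95% counting interval 1.30 to 51.5), 7.81 in BUTN (1.88 to 69.1), 8.83 in TNPR (2.16 to 77.7) and 6.99 in TNBU (1.63 to 63.0). Each call of limma-voom, up in the 4 groups, was lost with DESeq2 for the contrasts with TN. The calls in PRTN, BUTN and TNBU against TN were also lost without either TN library. That in PRTN was lost without either PRTN library too, and that in TNBU without TNBU replicate 2. Against Ctrl, the calls in PRTN and TNBU were lost with DESeq2 and without Ctrl replicate 1.

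IRF8 had 0 counts in both Ctrl libraries and 1 and 0 in TN. It had 4 and 2 counts for PRTN, 1 and 10 for BUTN, 5 and 2 for TNPR, and 3 and 10 for TNBU, and the 2 libraries of BUTN and of TNBU were far apart. With 0 counts in Ctrl, the ratio of summed counts to Ctrl has only a lower counting limit (95% interval), which was 2.96 for TNBU and 2.15 for BUTN. The IRF8 call in TNBU against TN (adjusted p = 0.0467) was lost in 12 of 19 alternatives, and that against Ctrl (adjusted p = 0.0131) without either Ctrl library or TNBU replicate 2.

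Markers of leukocytes, the cells in which IRF4 and IRF8 are best known, were measured beside them. Of 15 such genes, 1 to 2 reached 1 CPM in each Ctrl or TN library and 3 to 5 in each SCFA library. Their summed level was 32.2 to 37.2 CPM in Ctrl, 31.7 to 35.1 in TN, 34.6 to 35.0 in PRTN, 50.4 to 53.2 in BUTN, 35.7 to 42.0 in TNPR and 53.8 to 61.1 in TNBU, most of it the lysosomal gene CD68. Among the defining markers, the B-cell gene MS4A1 was at 0 in all 12 libraries, FCGR3A in 11, CD3E in 9, and the pan-leukocyte gene PTPRC in 7 with at most 5 counts. LAPTM5, CD14, CSF1R and TYROBP rose in all 4 SCFA groups. Of 10 list genes that passed the filter, 7, 6, 5 and 6 rose in PRTN, BUTN, TNPR and TNBU against TN, and 0 fell. Over all genes, 23.9%, 23.1%, 24.9% and 25% were called up in these contrasts. Genes at or near 0 counts without SCFA, such as TYROBP and SPI1, passed the filter only through the SCFA groups. Calls of such genes are no support. LAPTM5, a lysosomal membrane gene of blood cells, was at 0.633 and 0.538 CPM in TN and at 4.41 to 6.57 CPM in the SCFA libraries. CD14, a coreceptor for lipopolysaccharide, was at 0.633 and 0.897 CPM in TN and at 2.13 to 3.53 CPM in the SCFA libraries. CSF1R, the receptor of a macrophage growth factor, was at 0.149 and 0.144 CPM in TN and at 0.350 to 1.22 CPM with SCFAs, and TYROBP was at 0 in the 4 libraries without SCFA and at 0.267 to 0.982 CPM with SCFAs. LYZ, the lysozyme gene, was at 0.149 and 0 CPM in TN and at 0.0701 to 1.502 CPM with SCFAs, and it was called in PRTN and BUTN. The part of all these markers in the IRF4 and IRF8 values was not tested. SPI1, the partner of both in blood cells, had 0 counts in TN and at most 8 in any library.

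Counted over the 8 members, 1 rose and 2 fell in PRTN against TN, where 23.9% of all genes were called up and 16.7% down. In BUTN 2 rose and 2 fell, beside 23.1% and 14.8%. In TNPR 1 rose and 4 fell, beside 24.9% and 16.9%, and in TNBU 3 rose and 4 fell, beside 25% and 16.5%. IRF4 made up the rise in PRTN and in TNPR, and IRF4 with IRF7, or with IRF7 and IRF8, those in BUTN and TNBU. IRF4 and IRF8 passed the filter only through the SCFA groups. Neither their calls nor their lack of overlap in the counts of this paragraph is support, and IRF7 was the only other member that rose. Against Ctrl, 1 member rose and 2 fell in PRTN (22.6% and 16.9% of all genes), 2 and 1 in BUTN (22% and 14.9%), 1 and 3 in TNPR (23.6% and 16.8%), and 3 and 3 in TNBU (23.6% and 16.5%). These comparisons share the TN or Ctrl libraries. The later against the earlier addition gave 0 calls of 8 for each SCFA with limma-voom, edgeR and DESeq2, with 2 members at an unadjusted p under 0.05 in each, beside 0.16% of all genes called for propionate and 0.267% for butyrate. Leaving out TNPR replicate 1 gave 1 call for propionate, IRF1. The libraries of 5 of 8 members did not overlap between TN and Ctrl, beside 46.8% of all genes. Against TN this held for 8 members with PRTN (78.2%), 7 with BUTN (77.4%), 6 with TNPR (76.6%) and 8 with TNBU (75.7%), against Ctrl for 7 (78.4%), 8 (77.7%), 7 (76.8%) and 8 (75.5%), and for 4 in each timing contrast (43.2% and 43%).

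**Figure D4:**
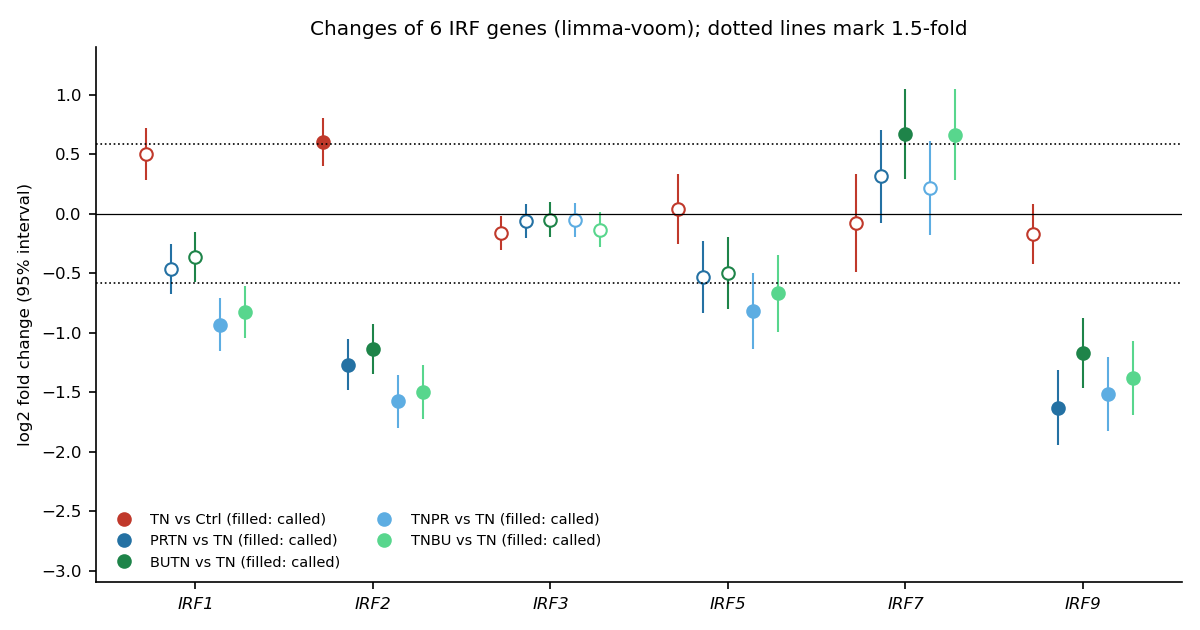
The log2 fold changes of 6 IRF genes (vertical axis) are plotted with their 95% intervals for TN against Ctrl and for the SCFA groups against TN; filled points were called and dotted lines mark 1.5-fold. IRF2 and IRF9 lie below the lower line in all 4 SCFA groups, IRF1 and IRF5 in TNPR and TNBU, and IRF7 above the upper line in BUTN and TNBU.

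The genes around the IRFs were described from lists of partners, upstream kinases and adaptors, coregulators, interferons, receptors and targets, 103 genes of which 88 were tested. With TNF-α, 5 of the 88 rose and 0 fell, beside 0.764% of all genes called up and 0.534% down. The 5 were IFNGR1, IFNAR2, IFNGR2, VCAM1 and GBP1 (log2 0.82, 0.72, 0.62, 1.38 and 0.97). Against TN, 13 rose and 32 fell for PRTN, 15 and 25 for BUTN, 11 and 33 for TNPR, and 14 and 33 for TNBU, where 23.1% to 25% of all genes were called up and 14.8% to 16.9% down. The medians of the 88 were log2 -0.37, -0.27, -0.31 and -0.32. IFNAR2, IFNGR1, IFNGR2 and IRF2 are in a downregulated gene set that the study chose on these samples, so their direction is not independent of it. The paper also names VCAM1 among the inflammation genes that SCFAs lowered in TNF-α-treated cells, so the same holds for VCAM1. With the later against the earlier addition, GBP2 was the only list gene called for propionate, and it rose, and IFNGR2 the only one for butyrate, and it fell, both named after their values were seen.

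Interferon genes had few or no counts. Of 12 genes on the list, only IFNE passed the filter, and IFNB1, the target of IRF3 that is known to start the type I response, had 0 counts in all 12 libraries. The receptor side was expressed and moved with treatment. IFNAR2, a chain of the type I receptor, was at 73.0 and 74.3 CPM in Ctrl and 122 and 121 in TN, and it fell to 52.6 and 58.1 in PRTN (log2 -1.14). IFNGR2, a chain of the type II receptor, went from 118 and 120 CPM in TN to 41.4 and 34.1 in TNPR (log2 -1.66). JAK1, the kinase of both, fell with log2 -1.45, -1.37, -1.45 and -1.45 in PRTN, BUTN, TNPR and TNBU.

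Against TN, 0 of 18 upstream kinases and adaptors rose, and 7, 5, 7 and 7 fell in PRTN, BUTN, TNPR and TNBU, beside 14.8% to 16.9% of all genes called down. Against Ctrl, 1 of the 18 rose in PRTN (CHUK) and 1 in BUTN (OPTN), both named after their values were seen. IRAK1, which acts below Toll-like receptors and activates IRF7, fell to 54.6 and 54.9 CPM in PRTN, from 238 and 260 in TN, and to 46.4 and 44.6 in TNPR (log2 -2.19 and -2.45). MB21D1, the gene of the DNA sensor cGAS, fell by log2 -1.30 in PRTN, and SLC15A4, an endosomal transporter needed for IRF5 activation, by log2 -1.16. TBK1, the IRF3 kinase, was at 59.8 and 53.9 CPM in TN and between 36.6 and 40.3 CPM in the SCFA libraries, and its log2 differences of -0.54, -0.51, -0.57 and -0.59 passed the fold threshold only in TNBU. IKBKE, the related kinase, fell in TNPR (log2 -0.88) and was called in no other contrast with TN.

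Of 10 coregulators and ubiquitin ligases, 3 fell in each SCFA group against TN, beside 14.8% to 16.9% of all genes. These were TRIM21, a ligase that acts on IRF proteins, with log2 -1.32, -1.14, -1.37 and -1.25, and the acetyltransferases CREBBP and EP300. IRF2BP2, a corepressor that binds IRF2, was called up in BUTN only (log2 0.59), and its other differences were 0.43 to 0.56. Whether IRF2BP2 differed between propionate and butyrate was not tested.

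Genes known as IRF1 and IRF2 targets fell more often than they rose, with 11, 8, 9 and 9 of 19 down and 1, 2, 1 and 1 up in PRTN, BUTN, TNPR and TNBU against TN. Over all genes, 16.7%, 14.8%, 16.9% and 16.5% were called down and 23.9%, 23.1%, 24.9% and 25% up. Their medians were log2 -0.67, -0.49, -0.58 and -0.35, beside the medians of all genes given for the ISGF3 targets. VCAM1, an adhesion molecule gene that the paper itself names as lowered by SCFAs, was at 7.89 and 7.47 CPM in TN. It was at most 0.282 CPM in any SCFA library. GBP1, a guanylate-binding protein gene, went from 39.2 and 36.2 CPM in TN to between 1.94 and 3.09 CPM in the SCFA libraries, and PSMB10, an immunoproteasome subunit gene, from 38.2 and 39.1 CPM to between 2.70 and 4.44 CPM. NOS2 rose (log2 2.72 to 3.79).

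The most similar profile to each IRF was sought over the 12 libraries among 12977 genes, by the smallest root mean square difference of log2 CPM from the Ctrl mean. For IRF2 these were IFNGR2 (difference 0.118, r = 0.979), SLC2A6 (0.122, r = 0.985) and CD58 (0.129, r = 0.977). IRF9 was most like KDM3B (0.103, r = 0.990), MGST2 and DCP1B, and IRF1 most like EPHA2 (0.0896, r = 0.962), RASSF3 and CDC42EP2. For IRF5 they were CCDC12, MTA2 and OR3A2, for IRF3 ZNF429, PTOV1 and NUP85, and for IRF7, with the weakest likeness, SLC46A1 (0.142, r = 0.882), FUT2 and PRRX2. The points share groups, so r describes the group differences and carries no p. IRF1 overlaps IRF1-AS1 (C5orf56) by 2805 exon bases on the other strand, and that gene was at 1.79 CPM in TN and 0.646 in PRTN.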

How the data were processed

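RNA of HK2 cells was measured in 12 libraries of 6 groups, taken from the label of each library. Per gene, the deposited values are expected counts, estimates that the authors made from stranded mRNA libraries aligned to GRCh38 with STAR (2.6.1a in the submitters' processing notes) and counted with RSEM on GENCODE release 26; the RSEM version and strand setting are not given in the sources used here. Counts were not rounded. Genes were kept where the geometric mean, taken after adding 1 and then reduced by 1, reached at least 1 (24342 of 58278). TMM factors (edgeR 4.0.16) and limma-voom (limma 3.58.1, R 4.3.3) with 6 group means gave moderated statistics and Benjamini-Hochberg adjusted p-values over all kept genes. edgeR's quasi-likelihood test and DESeq2 1.42.0 on rounded counts, other scalings, filters and designs, and leaving out each library were alternatives; the fit was tested on simulated data. Positions and lengths are from GENCODE release 44, promoters from RefSeq. All members are named, and from each list the 3 called genes with the largest change at 1 CPM or more in the higher group, with STAT2, SPI1, TBK1, IKBKE, IRF2BP2, TRIM21 and IFNB1 always; some listed genes are counted in their lists but not reported here by name. The members and lists were chosen with earlier results of these data known. Replicate numbers were not used to pair the libraries, since the study's methods name no pairing. Of 15 correlations of deviations between groups (-0.0791 to 0.240), 1 was over 0.1. With 2 libraries a group, these cannot settle whether libraries of the same number belong together.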

Additional observations from a re-analysis of the deposited data

How the results depend on the processing

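Of 1738 alternative values for single members, 1654 kept the call, 60 lost it, 24 gained one and 0 reversed; IRF3 and IRF9 changed in none of 220 each. Of 462 counts under alternatives, 428 stayed within 1.5 times. Calls of IRF genes in TN against Ctrl were 0 with library size alone, with only the groups compared and at a fold over 2. At a fold over 2, the IRF counts were 3 in TNPR and 4 in TNBU against TN, and 2 in TNPR and 3 in TNBU against Ctrl, and the list genes were 1 in TN against Ctrl, 26 in TNPR against Ctrl, and 0 in both timing contrasts. List genes in TNPR against PRTN were also 0 with DESeq2, RLE size factors, the literal geometric mean and only the groups compared, and in TNBU against BUTN 2 with DESeq2 and 0 with library size alone or only the groups compared. The cause was not tested, beyond the stricter fold and the smaller fits. With the replicate block, list genes in TNBU against BUTN were 2, and the block left every IRF count as it was (1 in TN against Ctrl, 5 in TNPR and 7 in TNBU against TN). Leaving out 1 library gave IRF counts of 0 to 1 in TN against Ctrl (0 without Ctrl replicate 2), 2 to 3 in PRTN, 3 to 5 in BUTN, 5 in TNPR and 4 to 7 in TNBU against TN (4 without TN replicate 1), 1 to 4 in PRTN (1 without Ctrl replicate 1), 2 to 4 in BUTN, 4 to 5 in TNPR and 3 to 6 in TNBU against Ctrl (3 without Ctrl replicate 1), and 0 to 1 in TNPR against PRTN. List counts were then 0 to 1 in TNPR against PRTN (0 without either PRTN library, TNPR replicate 2 or TNBU replicate 1) and 0 to 3 in TNBU against BUTN (0 without either BUTN library or TNBU replicate 2; 3 without either TNPR library or TNBU replicate 1). A lone library left in a group was assumed to vary like the others. Library size alone moved the median of all genes by 0.153 to 0.196 (log2) in the contrasts with TN and gave 6785 rises and 3127 falls in PRTN against TN, in place of 5824 and 4057. Depth limits IRF4 and IRF8, with at most 11 counts in a library.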
